A study of Mus musculus with 8 samples.

Results

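Adipokines are signalling proteins that fat tissue releases into the blood, and 9 of their genes were examined here among the 22552 genes of the mRNA table. The genes were taken by name: Adipoq, Lep, Retn, Cfd, Rbp4, Nampt, Rarres2, Lcn2 and Apln. All 9 were in the table, none was listed at 0, and each averaged 1 FPKM or more over both columns, the filter that left 11597 genes for comparison. FPKM scales fragments by transcript length and by library size, so levels can be set side by side between genes.

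The study compared brown adipose tissue, which burns fat to make heat, between Null mice (mmu-mir-193b -/-) and WT mice (mmu-mir-193b +/+), both 2 months old. Their strain was a mixture of 129SV, FVB/N and C57BL/6. The deletion removes the cluster of Mir193b and Mir365-1. It was made with the MMTV-Cre transgene and a floxed allele, and the transgene was bred out afterwards. There were 3 Null and 3 WT mRNA-seq samples and 1 Null and 1 WT microRNA-seq sample. The authors gave 1 FPKM column per genotype, called the Null pool and the WT pool below. No value therefore has an SD, no difference has a replicate check, and whether replicate values overlapped between the genotypes cannot be seen. How deeply the mRNA libraries were sequenced is unknown. The sex of the mice is not given in the sources used here.

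In textbook terms, adipokines tell other organs how much fat is stored and how well it responds to insulin. Adiponectin (Adipoq) raises insulin sensitivity, leptin (Lep) acts on the brain to curb feeding, and resistin (Retn) opposes insulin in mice. Adipsin (Cfd) is complement factor D, the protease that starts the alternative complement pathway. These hormones are best known from white fat. No white fat was sampled, so the levels below describe brown fat alone.

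The deleted microRNAs were checked first. miR-193b-3p was at 11.5 RPM in the Null library and 3705 RPM in the WT library, which left 0.311% of the WT level. miR-365-3p was at 798 RPM in Null and 1442 RPM in WT; a copy of its gene, Mir365-2, lies outside the deleted cluster. The relative miR-193a-3p was at 4067 RPM in Null and 3857 RPM in WT. Their mature sequences are shown to set the deleted microRNAs beside this relative. They come from RefSeq (GRCm38.p6, plus strand), with the seed, bases 2 to 8, in capitals. The mature sequence of miR-193b-3p is at chr16:13449570-13449591, that of miR-365-3p in the deleted cluster at chr16:13453895-13453916 and that of miR-193a-3p at chr11:79712009-79712030.
miR-193b-3p: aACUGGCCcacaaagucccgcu
miR-365-3p: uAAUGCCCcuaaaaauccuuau
miR-193a-3p: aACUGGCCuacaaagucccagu
miR-193b-3p and miR-193a-3p share a seed, and miR-365-3p has another.

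The promoters of 5 adipokine genes are shown because these genes had the largest differences between the pools among the 9. Each is 300 bases, from 250 before the gene's start to 50 after it, from RefSeq (GRCm38.p6), and 8 of the 9 genes matched an entry. Adipoq is at chr16:23146286-23146585 (plus strand), Retn at chr8:3655520-3655819 (plus), Cfd at chr10:79890603-79890902 (plus) and Lep at chr6:29059971-29060270 (plus). Rbp4 has 2 annotated starts on the minus strand, an upstream one at chr19:38125272-38125571 and a downstream one at chr19:38124762-38125061. Capitals mark matches, on both strands, to 5 motifs: TATAAA (the TATA box), CCAAT, TTGCGCAA (a palindrome bound by C/EBP factors), GGGCGG (the GC box) and AGGTCA (the repeat unit of nuclear receptor sites).
Adipoq: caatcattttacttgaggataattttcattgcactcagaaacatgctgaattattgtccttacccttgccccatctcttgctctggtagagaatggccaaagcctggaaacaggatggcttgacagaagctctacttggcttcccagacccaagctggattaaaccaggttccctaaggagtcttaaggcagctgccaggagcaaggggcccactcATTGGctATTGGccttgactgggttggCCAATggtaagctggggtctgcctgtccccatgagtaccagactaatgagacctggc
Retn: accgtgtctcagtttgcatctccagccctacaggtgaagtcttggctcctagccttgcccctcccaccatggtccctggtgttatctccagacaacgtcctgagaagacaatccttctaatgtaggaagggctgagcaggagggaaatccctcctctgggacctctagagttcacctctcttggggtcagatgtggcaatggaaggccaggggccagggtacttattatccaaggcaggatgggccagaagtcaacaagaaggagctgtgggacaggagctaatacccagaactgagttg
Cfd: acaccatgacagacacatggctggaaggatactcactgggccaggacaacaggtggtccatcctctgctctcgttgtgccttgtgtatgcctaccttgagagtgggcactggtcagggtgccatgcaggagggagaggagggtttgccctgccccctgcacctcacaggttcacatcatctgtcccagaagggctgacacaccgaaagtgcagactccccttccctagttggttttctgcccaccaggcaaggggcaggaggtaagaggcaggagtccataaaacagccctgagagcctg
Lep: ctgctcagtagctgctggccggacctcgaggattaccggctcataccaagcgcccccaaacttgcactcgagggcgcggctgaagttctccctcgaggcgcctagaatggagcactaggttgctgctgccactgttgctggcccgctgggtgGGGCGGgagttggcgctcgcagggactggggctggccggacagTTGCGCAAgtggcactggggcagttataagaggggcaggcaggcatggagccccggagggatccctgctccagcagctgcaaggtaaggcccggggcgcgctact
Rbp4 upstream start: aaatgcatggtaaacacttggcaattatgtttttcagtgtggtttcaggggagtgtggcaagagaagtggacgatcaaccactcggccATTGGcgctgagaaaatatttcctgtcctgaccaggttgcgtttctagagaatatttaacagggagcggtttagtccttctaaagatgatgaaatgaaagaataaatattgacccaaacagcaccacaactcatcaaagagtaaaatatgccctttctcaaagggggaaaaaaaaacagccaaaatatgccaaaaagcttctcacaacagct
Rbp4 downstream start: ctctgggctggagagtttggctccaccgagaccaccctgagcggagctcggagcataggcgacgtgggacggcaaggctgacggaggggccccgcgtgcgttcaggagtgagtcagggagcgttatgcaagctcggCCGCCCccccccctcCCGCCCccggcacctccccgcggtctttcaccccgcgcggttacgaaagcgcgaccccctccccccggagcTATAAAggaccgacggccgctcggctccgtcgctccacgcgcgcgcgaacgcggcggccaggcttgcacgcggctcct
The palindrome TTGCGCAA stood in the Lep promoter, where its first base was at position -55 from the gene's first base, and was found in 0.183% of 32851 promoters. The Adipoq promoter held CCAAT 3 times, and 37.4% of promoters held it at least once. The downstream Rbp4 start had TATAAA at position -28, a motif in 13.6% of promoters, and GGGCGG 2 times, a motif in 35.7%. AGGTCA, in 16.3% of promoters, was in none of these 6 windows, and the Retn and Cfd windows held none of the 5 motifs. TTGCGCAA reads the same on both strands, so its matches on either strand are 1 site. No other matches in these windows overlapped, and a match describes letters only.

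Cfd and Adipoq were the most abundant adipokine mRNAs, and both were higher in Null. Cfd was at 2672 FPKM in the Null pool and 1334 FPKM in the WT pool. That placed it at rank 24 in Null and rank 41 in WT among the 11597 genes. Adipoq was at 1899 FPKM in Null and 1163 FPKM in WT, rank 35 in Null and rank 50 in WT. In WT its level was close to that of Pck1 (1263 FPKM in Null, 1157 FPKM in WT), a glyceroneogenesis enzyme abundant in fat. Of the 11597 genes, 99.8% were below Cfd in Null and 99.6% in WT, so that it was one of the most abundant mRNAs of brown fat in either genotype.

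Rbp4 encodes the retinol carrier of the blood, known from liver and also from fat, where it has been tied to insulin resistance in mice. It was at 300 FPKM in Null and 842 FPKM in WT, rank 290 in Null and rank 83 in WT. In WT its level was close to that of Lpl, the lipase of fat capillaries (952 FPKM in Null, 829 FPKM in WT). In Null it was below Retn. The plasma partner of its protein, Ttr, was at 0.135 FPKM in Null and 0.0952 FPKM in WT, and albumin (Alb) at 0.413 FPKM in Null and 0.340 FPKM in WT. Of 11 hepatocyte markers 3 passed the filter: Cyp2e1 at 53.2 FPKM in Null and 64.7 FPKM in WT, Apoa2 at 5.84 FPKM in Null and 0.101 FPKM in WT, and Apoa1 at 2.07 FPKM in Null and 0.393 FPKM in WT. The summed level of the 11 was 62.2 FPKM in Null and 65.9 FPKM in WT, and Tat was listed at 0 in both pools. Most of that sum was Cyp2e1, the 1 of the 3 that was lower in Null. The part of liver cells in the level of Rbp4 was not tested.

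Retn was at 347 FPKM in Null and 220 FPKM in WT. Rarres2, which encodes the chemoattractant chemerin, was at 196 FPKM in Null and 130 FPKM in WT. Nampt, an NAD-making enzyme that is also secreted as visfatin, was at 118 FPKM in Null and 94.9 FPKM in WT. All 3 lay above 93.3% to 97.9% of the 11597 genes in both pools. Their order, Retn over Rarres2 over Nampt, was the same in both.

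Leptin mRNA was present at a lower level, 39.9 FPKM in Null and 60.6 FPKM in WT, with 83.1% of the genes compared below it in Null and 88.9% in WT. Adipoq stood 47.6 times as high as Lep in Null and 19.2 times as high in WT. Lcn2, a siderophore-binding protein of inflamed fat and of neutrophils, was at 3.46 FPKM in Null and 2.96 FPKM in WT. Apln, which encodes the vascular peptide apelin, was lowest at 1.48 FPKM in Null and 1.00 FPKM in WT. Of the 11597 genes, 21.8% were below Lcn2 in Null.

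**Figure D1:**
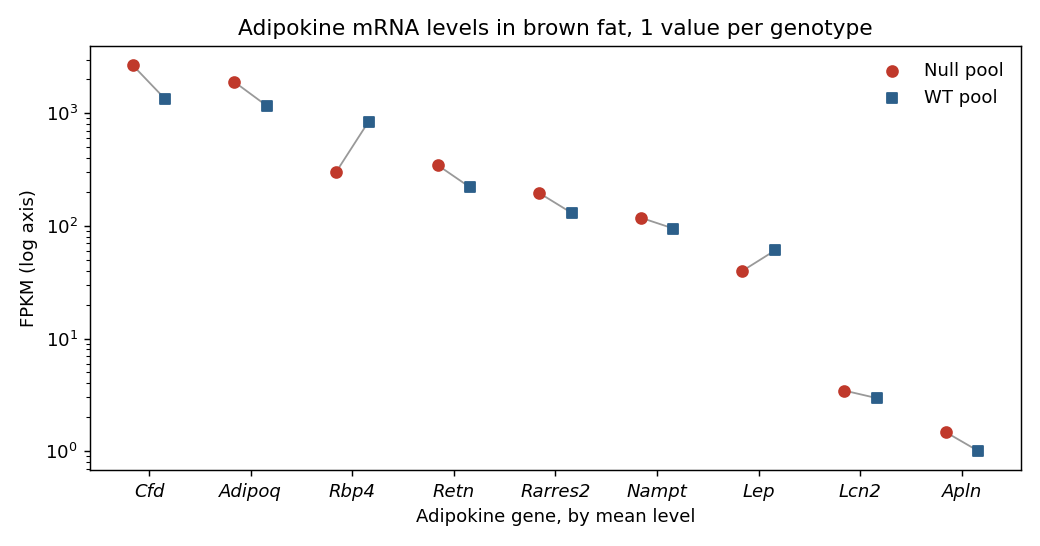
FPKM on a log axis of each adipokine gene, with the Null pool as red circles and the WT pool as blue squares, 1 value each and joined by a line. Cfd at 2672 FPKM in Null and 1334 FPKM in WT is highest and Apln at 1.48 FPKM in Null and 1.00 FPKM in WT lowest; Rbp4 and Lep are the genes whose line runs up from Null to WT.

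Set as shares of their summed FPKM, the adipokines of Null fat were more uneven than those of WT fat. Cfd and Adipoq together made up 82.0% of the adipokine sum in Null and 64.9% in WT. Rbp4 made up 5.37% in Null and 21.9% in WT. The sum itself was 5576 FPKM in Null and 3849 FPKM in WT, which was 0.945% of all FPKM in the Null column and 0.757% in the WT column. Without Cfd and Adipoq the sum was 1005 FPKM in Null and 1351 FPKM in WT. The order of levels was the same in both pools except that Rbp4 and Retn changed places.

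Differences between the pools were expressed as log2((Null + 1)/(WT + 1)), so that a positive value means higher in Null. Rbp4 had the largest difference of the 9, at -1.49, a level in Null 0.356 times that in WT. Cfd followed at 1.00, and was 2.00 times as high in Null. Adipoq (0.71), Retn (0.66) and Rarres2 (0.58) were higher in Null, and Lep (-0.59) was lower. Nampt (0.32), Apln (0.30) and Lcn2 (0.17) differed less.

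By 2-fold or more, 1 gene of the 9 was higher in Null, where 2.17% of the 11597 genes were, and 1 was lower, where 1.65% of all genes were. They were Cfd and Rbp4. Cfd was just under 2-fold, at 0.99, with the median ratio of all genes set to 0, and further under it with the other scalings. By 1.5-fold or more, 3 were higher (7.87% of all genes) and 2 lower (6.75% of all genes), and 4 lay within 1.5-fold. Rarres2, whose FPKM in Null was 1.504 times that in WT, fell just short of 1.5-fold through the pseudocount of 1. With a pseudocount of 0.1 FPKM it passed, and 4 were higher. The median log2 ratio of the 9 was 0.32, beside 0.01 over all 11597 genes. Abundant genes in general had higher ratios: among the 786 genes that averaged 100 FPKM or more, 6 of the adipokines included, the median was 0.18, 22.3% were higher by 1.5-fold or more and 6.62% lower. The level of 100 FPKM was chosen after the values were seen. With each column scaled to the same sum, the median of all genes moved to -0.19 and that of the 786 abundant genes to -0.03. The calls at 2-fold then split into 167 higher and 402 lower, beside 252 higher and 191 lower as deposited. Of the 11597 genes, 50.6% were higher in Null by any amount as deposited and 30.6% with equal column sums, and the counts of higher genes in the lists below are to be read against these shares.

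Rbp4 had the lowest ratio among abundant genes. Its ratio was below that of every other gene among these 786 as deposited, and also with quantile normalization (described below). It stayed lowest with the other scalings and the pseudocounts tried, but these could hardly change the order of such abundant genes. Those scalings shift all of them by nearly the same amount, and the pseudocounts are small beside their levels. Among genes that averaged 50 FPKM or more, 4 of 1593 had a lower ratio than Rbp4. They were Gpam, the first enzyme of triglyceride synthesis, Elovl3, a fatty acid elongase, and the small RNA genes Mir677 and Snord12. Above Cfd, 58 of the 786 abundant genes had a higher ratio, as 121 had above Adipoq and 148 above Retn. For Lep, 773 of the 11597 genes had a lower ratio.

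**Figure D2:**
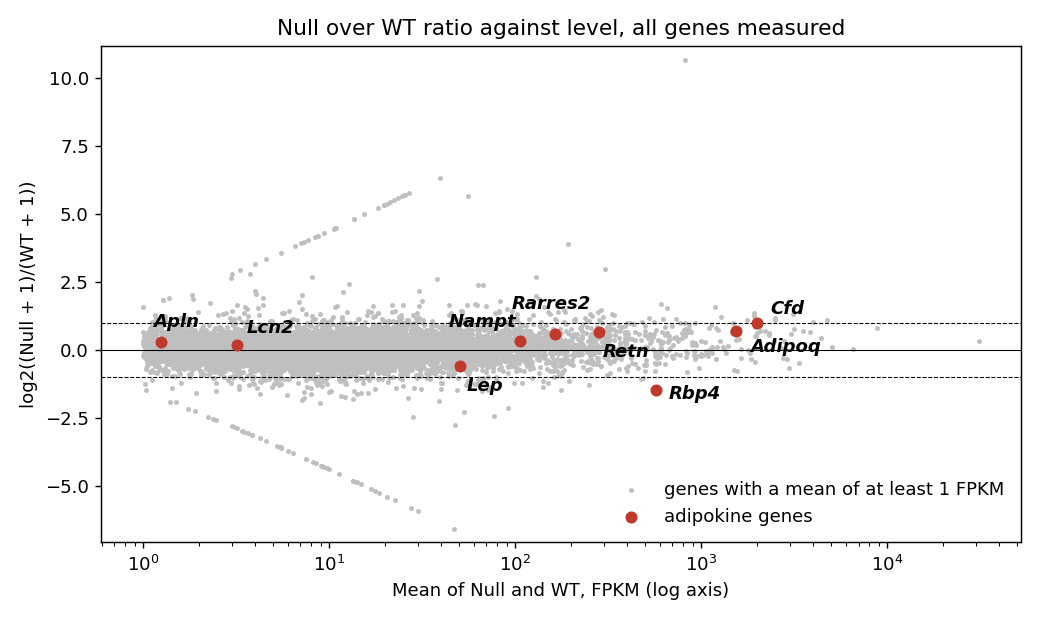
Log2((Null + 1)/(WT + 1)) against the mean FPKM of both pools on a log axis, for 11597 genes in grey and the 9 adipokine genes in red, with dashed lines at 2-fold. Rbp4, at -1.49, lies below all other genes of its level, Cfd lies on the upper 2-fold line, and the oblique rows of grey points are genes listed at 0 in 1 pool.

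With equal column sums, Cfd was at 0.79, Adipoq at 0.49 and Retn at 0.44, which is to be read against the median of -0.19 for all genes in that setting. With quantile normalization, which gives both pools the same distribution of values, Cfd was at 0.54, Adipoq at 0.36 and Retn at 0.48. Rbp4 was at -1.70 with equal column sums and -1.73 with quantile normalization, and Lep at -0.81 and -0.64. No adipokine gene changed sign under the 3 scalings, although Lcn2 was at 0.01 with equal column sums, beside 0.19 with quantile normalization. Pseudocounts and filters cannot change a sign. A median ratio of 0 moved the ratios too little to do so (Cfd from 1.00 to 0.99). Equal column sums lowered every adipokine ratio, so Rbp4 and Lep could not change sign with them. Among the other genes listed below, those that changed sign with either scaling had ratios of at most 0.21 in size.

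**Figure D3:**
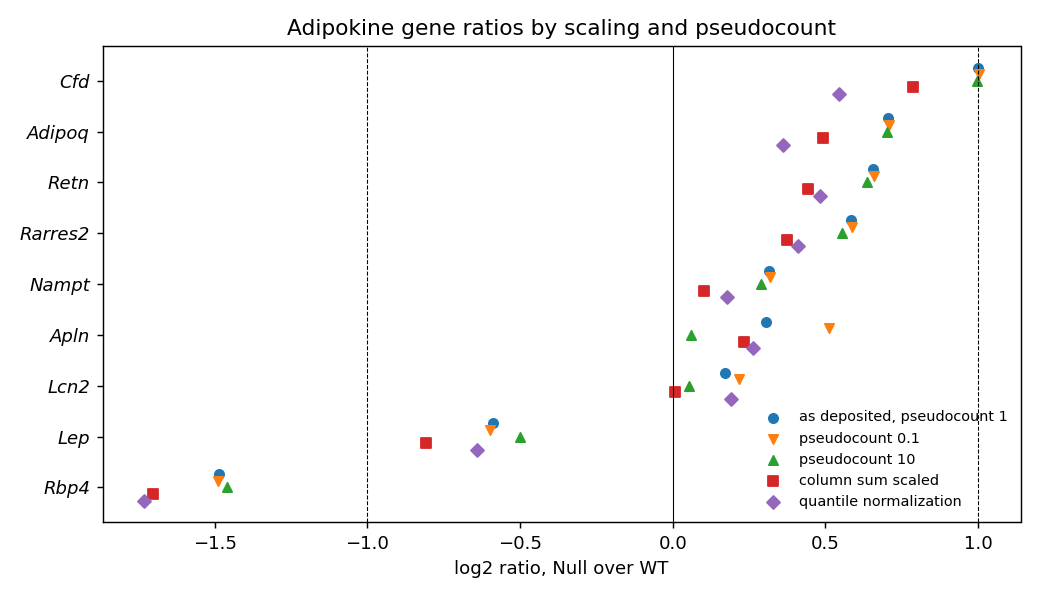
Log2 ratio of Null over WT for each adipokine gene under 5 settings, shown by marker, with dashed lines at 2-fold. Rbp4 stays between -1.73 and -1.46, while Cfd ranges between 0.54 and 1.00 and Adipoq between 0.36 and 0.71.

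Ratios in this table also went with gene length. Gene spans, introns included, were available for 85.9% of the 11597 genes from RefSeq (GRCm38.p6). Genes were divided into 4 equal groups by span. In the group with the shortest spans the median log2 ratio was 0.17 and 68.4% of genes were higher in Null, beside -0.13 and 34.1% in the group with the longest. Retn, Cfd, Rbp4, Rarres2, Lcn2 and Apln were in the shortest group, Adipoq and Lep in the next and Nampt in the third. The 60 ribosomal protein genes, which encode short mRNAs, had a median of 0.89, with 57 higher in Null. Rbp4 was lower in Null, in the shortest group, where 68.4% of genes were higher. The part of length in the ratios of Cfd, Retn, Rarres2, Adipoq and Rbp4 was not tested.

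The tissue carried the markers of brown fat in both pools, with Ucp1, the uncoupling protein that makes heat, at 2487 FPKM in Null and 3016 FPKM in WT. The fat cell carrier Fabp4 was at 34679 FPKM in Null and 27295 FPKM in WT. For markers shared by fat cells the median ratio was -0.11 and 6 of 16 were higher in Null (summed level 44952 FPKM in Null and 39380 FPKM in WT). With equal column sums the median was -0.32 and 3 were higher. By 1.5-fold or more, 2 of the 16 were lower and 0 higher, beside 6.75% and 7.87% of all genes. By 2-fold 0 differed, beside 1.65% lower and 2.17% higher. Most of these markers averaged 100 FPKM or more. Among all genes of that level, 6.62% were lower and 22.3% higher by 1.5-fold, and the median was 0.18. Of their 3 most abundant members, Fabp4 was at 0.35, Gpd1, which makes glycerol phosphate, at -0.65 and Pck1 at 0.13. In such bulk tissue, fewer cells of a type and less RNA per cell cannot be told apart.

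Markers of white fat were split evenly. Of 12 measured white fat markers 6 were higher and 6 lower (1 and 11 with equal column sums, where 30.6% of all genes were higher), with a median of 0.00, and Wt1, Tcf21 and Hoxc10 were listed at 0 in both pools. Sncg, Dpt and Nnat, the most abundant, had ratios of -0.20, 0.20 and -0.24. Of 17 brown fat markers 6 were higher and 11 lower, with a median of -0.27. The most abundant brown fat marker, Cox8b, a subunit of cytochrome c oxidase, was at 11163 FPKM in Null and 6407 FPKM in WT (0.80). Past 2-fold were Cox7a1 (1.02), Elovl3 (-2.27) and Hspb7 (-1.34), 1 higher and 2 lower of 17, beside 2.17% and 1.65% of all genes. Cox7a1 was at 0.81 with equal column sums and 0.59 with quantile normalization.

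Skeletal muscle markers were lower in Null in 11 of 12 cases, with a median of -0.99 and a summed level of 2053 FPKM in Null and 3010 FPKM in WT, which is the direction of Rbp4 and Lep. The sarcomere genes Acta1 (-1.01), Myh1 (-1.79), Myh2 (-1.86), Myh4 (-1.38), Myh7 (-1.70) and Actn2 (-1.50) were past 2-fold, while the abundant Tnnt3 and Mylpf were at -0.51 and 0.09. Macrophage markers were higher in 14 of 16 cases, with a median of 0.39 and sums of 269 FPKM in Null and 189 FPKM in WT. Aif1 (1.04) and Fcer1g (1.03) were past 2-fold, and the abundant Lyz2, C1qa and C1qb were at 0.40, 0.40 and 0.39. With equal column sums Aif1 and Fcer1g were at 0.97 and 0.86, and with quantile normalization both were at 1.06. Of all genes 2.17% were higher and 1.65% lower by 2-fold, shares that apply to each list here. Fibroblast and preadipocyte markers were higher in 8 of 10 cases, with a median of 0.45 and sums of 579 FPKM in Null and 374 FPKM in WT. Col3a1, a collagen, was past 2-fold at 1.14, and Dcn and Ly6a were at 0.41 and 0.70. Both lists went in the direction of Cfd, Adipoq, Retn and Rarres2. Red cell markers were higher in 4 of 4 cases, with sums of 469 FPKM in Null and 158 FPKM in WT, and the globin genes Hba-a1 (1.48), Hbb-b1 (2.61) and Hbb-b2 (1.39) were past 2-fold. Of the 12 neutrophil markers in the table, which bear on Lcn2, only S100a9 (12.01 FPKM in Null, 2.23 FPKM in WT) and S100a8 (4.83 FPKM in Null and 1.14 FPKM in WT) passed the filter. Of those below it, Camp was at 0.173 FPKM and Ngp at 0.0350 FPKM in Null, both listed at 0 in WT. Mpo was listed at 0 in Null and at 0.00859 FPKM in WT, and Ltf was listed at 0 in both. Endothelial markers had a median of 0.17 over 8 genes, or 0.00 with equal column sums, and Cdh5, Pecam1 and Esam were at 0.01, 0.04 and 0.42. All but Lrrn4 (0.03) of the 10 epithelial and mesothelial markers were below the filter. The part of other cells in the adipokine differences was not tested.

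The receptors of these hormones were mostly at modest levels. Of 17 receptors and binding partners 16 were in the table and 11 passed the filter. None of the 11 differed by 2-fold, near the shares of all genes (2.17% higher and 1.65% lower). By any amount 8 were higher and 3 lower, and the median was 0.18. With equal column sums 5 were higher and the median was -0.03. The adiponectin receptors Adipor2 (281 FPKM in Null, 337 FPKM in WT, log2 ratio -0.26) and Adipor1 (125 FPKM in Null and 110 FPKM in WT, 0.18, and -0.04 with equal column sums) were the most abundant. T-cadherin (Cdh13), which binds adiponectin on vessels and muscle, was at 7.74 FPKM in Null and 10.1 FPKM in WT (-0.35). Appl1, the adaptor of the adiponectin receptors, was at 7.78 FPKM in Null and 6.85 FPKM in WT (0.16).

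The widest receptor differences concerned apelin and chemerin. The apelin receptor Aplnr was at 20.0 FPKM in Null and 10.2 FPKM in WT (0.91), the same direction as its ligand Apln (0.30). The chemerin receptor Cmklr1 was at 4.38 FPKM in Null and 7.13 FPKM in WT (-0.60), opposite to its ligand Rarres2 (0.58). Ccrl2, which holds chemerin at the cell surface without signalling, was at 2.13 FPKM in Null and 1.25 FPKM in WT (0.48). These 3 genes kept their direction with equal column sums (0.73, -0.84 and 0.42 in that order).

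The leptin receptor Lepr was at 0.129 FPKM in Null and 0.150 FPKM in WT, below the filter, while Leprot, which shares its gene's first exons and encodes another protein, was at 25.6 FPKM in Null and 20.8 FPKM in WT (0.29). Cap1 and Tlr4, both described as binding resistin, were at 44.0 and 3.59 FPKM in Null and 40.2 and 3.06 FPKM in WT (0.13 and 0.18). The RBP4 receptor Stra6 was at 0.0393 FPKM in Null and 0.0283 FPKM in WT. Slc22a17, a receptor of lipocalin 2, was at 6.95 FPKM in Null and 5.86 FPKM in WT (0.21).

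**Figure D4:**
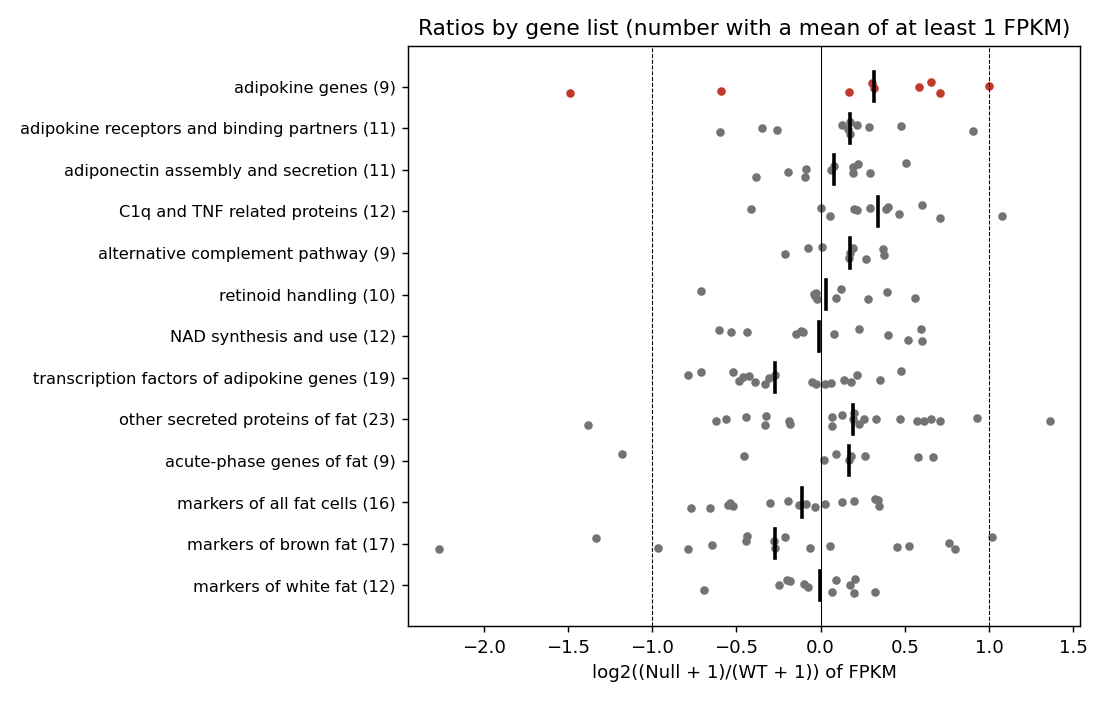
Log2((Null + 1)/(WT + 1)) of each measured gene by list, with a black bar at the list median, the number of genes in brackets and dashed lines at 2-fold. The adipokine genes in red run between -1.49 and 1.00. The receptors and adiponectin assembly genes keep within 2-fold, as most genes do. Of all 11597 genes, 2.17% were higher and 1.65% lower by that fold.

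Adiponectin is assembled into rings in the endoplasmic reticulum, and 11 genes of that step were measured. None differed by 1.5-fold or more, a fold by which 7.87% of all genes were higher and 6.75% lower, so that 0 of 11 is near the share of all genes. Of the 11, 7 were higher and 4 lower, and the median was 0.08. With equal column sums 4 were higher and the median was -0.14. The chaperones Hspa5, Calr and Hsp90b1 had ratios of -0.08, 0.08 and 0.06. Erp44, which holds adiponectin back, was at 26.8 FPKM in Null and 18.5 FPKM in WT (0.51), and Ero1l, which releases it, at 3.72 FPKM in Null and 5.18 FPKM in WT (-0.39). This pair was named for its role after the values were seen.

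The resistin family has 4 genes in mice, and Retnla, made by macrophages and fat, was at 40.2 FPKM in Null and 101 FPKM in WT (-1.31), against 0.66 for Retn. Retnlg was at 0.697 FPKM in Null and 0.0494 FPKM in WT, and Retnlb was listed at 0 in both. Of 12 measured C1q and TNF related proteins, Adipoq and the complement subunits C1qa, C1qb and C1qc among them, 11 were higher in Null with a median of 0.34, and 8 with a median of 0.14 with equal column sums. C1qtnf4 was past 2-fold at 5.27 FPKM in Null and 1.97 FPKM in WT (1.08). After Adipoq the most abundant were C1qtnf12, listed under its older symbol Fam132a, at 60.5 FPKM in Null and 58.2 FPKM in WT (0.06), and C1qtnf9 at 40.5 FPKM in Null and 32.9 FPKM in WT (0.29).

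Adipsin acts on factor B bound to C3, and the other genes of the alternative complement pathway had ratios below its 1.00. None of the 9 measured differed by 1.5-fold, again near the share of all genes, 7 were higher and 2 lower (5 higher with equal column sums), and the median was 0.18. C3 was at 100 FPKM in Null and 106 FPKM in WT (-0.08), and Cfb, which encodes factor B, at 6.65 FPKM in Null and 7.87 FPKM in WT (-0.21). The regulators Cd59a and Cr1l had ratios of 0.19 and 0.38. Masp1, whose MASP-3 product is known to activate adipsin, was at 0.0279 FPKM in Null and 0.166 FPKM in WT.

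Genes that handle retinol and its products were split in direction. Of 10 measured, 5 were higher and 5 lower, with a median of 0.03, or -0.16 with equal column sums. Past 2-fold were 0, near the shares of all genes (2.17% higher and 1.65% lower). The most abundant were Dhrs3, a retinal reductase (147 FPKM in Null, 99.2 FPKM in WT, 0.56), Retsat, a retinol saturase (76.7 FPKM in Null and 78.7 FPKM in WT, -0.04), and Rbp7, a retinol carrier inside cells (36.1 FPKM in Null and 33.8 FPKM in WT, 0.09). The partner receptor Rxra was lower at 13.1 FPKM in Null and 22.0 FPKM in WT (-0.71). Genes of NAD synthesis and use, the pathway of Nampt, were split 6 to 6, with a median of -0.01 over 12 genes. With equal column sums 5 were higher and the median was -0.22, and with a filter of 5 FPKM it was 0.23. Nadk, Sirt3 and Nnmt, the most abundant, had ratios of -0.10, 0.08 and 0.60.

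Of transcription factors known to act on adipokine genes 7 of 19 were higher and 12 lower, with a median of -0.27. Past 2-fold were 0, near the shares of all genes (2.17% higher and 1.65% lower). Cebpa, whose C/EBP protein binds motifs like the palindrome in the Lep promoter above, was at 337 FPKM in Null and 264 FPKM in WT (0.35). Pparg was at 237 FPKM in Null and 233 FPKM in WT (0.03) and Cebpb at 120 FPKM in Null and 122 FPKM in WT (-0.03). Of the enzymes that activate or degrade adipokines, Mme, which cleaves small peptides, was at 32.7 FPKM in Null and 51.1 FPKM in WT (-0.63). Furin, a proprotein convertase, was at 19.4 FPKM in Null and 33.7 FPKM in WT (-0.76), and Plau, which forms the plasmin that can activate chemerin, at 10.1 FPKM in Null and 6.09 FPKM in WT (0.65).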

How the data were processed

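The mRNA values were deposited by the authors as FPKM for 22552 genes, 1 column per genotype per the file headers, so the 3 libraries of each genotype had been combined, and how is not given in the sources used here. Per the labels' protocols, poly(A) RNA was purified and libraries were made with a TruSeq kit. Per the submitters' processing notes the build was mm9 and DESeq, edgeR, TopHat, BWA and CASAVA were among the tools, with no roles or versions. The microRNA values are headed RPM, and were taken as a signal whose scaling the authors do not describe. They sum to 1578515 in Null and 1559381 in WT, more than shares of the listed reads could. The p-value and ratio columns that the authors deposited beside them were not used.

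Samples were grouped by the genotype in their titles. Ratios were log2((Null + 1)/(WT + 1)) over the 11597 genes that averaged 1 FPKM or more, a scale that understates the change of low genes. With 1 value per genotype no test was made. The script was tested on simulated data. Alternatives were pseudocounts of 0.1 and 10 FPKM, equal column sums, quantile normalization, a median ratio of 0, no filter and a filter of 5 FPKM. The column sums were 590327 FPKM in Null and 508701 FPKM in WT. An entry of 0 can be a failed estimate: Fasn was at 1641 FPKM in Null and listed at 0 in WT, and Scd1 was listed at 0 in both. Low entries above 0 can be in doubt too, such as Gapdh at 0.463 FPKM in Null and 3.38 FPKM in WT.

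The members and the 23 gene lists, with 304 of 308 entries found in the table and 2 of these by an older symbol, were chosen with earlier results of these data known. Named genes were all members, receptors past the filter and, in other lists, the 3 most abundant and those past 2-fold. Genes outside this rule, among them Lepr, Stra6, Masp1, Cfb, Rxra, Erp44, Ero1l and the markers given as near or at 0, were named for their role after their values were seen. Python 3.11.15, pandas 2.3.3 and numpy 2.4.6 were used.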

Additional observations from a re-analysis of the deposited data

How the results depend on the processing

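The 9 adipokine ratios had the same sign in all 27 values computed under the 3 scalings. The other alternatives cannot change a sign. Among the scalings, a median ratio of 0 moved the ratios too little to change one, and equal column sums lowered every adipokine ratio. The 27 values are therefore not 27 separate checks. Over every result and alternative, 227 values stayed on the same side of 1.5-fold and 2-fold, or within 1.5 times for counts and within 10 points for percentiles, and 35 did not, as follows. With a pseudocount of 0.1 FPKM Rarres2 was at 0.59, the muscle list at -1.08, and 2.56% of genes were lower by 2-fold. With a pseudocount of 10 FPKM Lep was at -0.50, Cfd at 0.9965 (0 adipokines higher by 2-fold), 1 adipokine was lower by 1.5-fold, the hepatocyte list was at 0.22, and 0.940% of genes were higher and 0.517% lower by 2-fold. With equal column sums Adipoq was at 0.49, Retn at 0.44 and Cfd at 0.79, 0 adipokines were higher by 2-fold and 1 by 1.5-fold, the muscle list was at -1.23, and 1.44% of genes were higher and 3.47% lower by 2-fold. With quantile normalization Adipoq was at 0.36, Retn at 0.48 and Cfd at 0.54, 0 adipokines were higher by 2-fold and 0 by 1.5-fold, and the muscle list was at -1.10. With the median ratio set to 0 Cfd was at 0.99, and 0 adipokines were higher by 2-fold. With no filter the hepatocyte list was at 0.0514 and the red cell list at 0.59, beside 1.14 and 1.43 with it, and 1.13% of genes were higher and 0.860% lower by 2-fold. With a mean of at least 5 FPKM, which leaves 7 adipokines, the list of activating and degrading enzymes was at -0.63, beside -0.26. Among all genes of the table, 59.8% were below Lcn2 in Null and 57.8% in WT, and 51.6% were below Apln in Null and 49.2% in WT. The filter settings change which genes are counted, and the pseudocounts and scalings change the ratios themselves, in both cases by construction. Which scaling is nearest to the true levels was not tested.

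No paired analysis was possible because the table has 1 column per genotype, and leaving out replicates could not be run for the same reason. Protein lengths were not used here, and gene spans took their place. Unknown mRNA depth limits the reading of Lcn2 and Apln most.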

Other observations

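Other proteins that fat secretes differed in both directions too. Of 23 measured, 15 were higher and 8 lower in Null, or 10 higher with equal column sums, with a median log2 ratio of 0.19. Past 2-fold were 2, 1 higher and 1 lower, beside 2.17% and 1.65% of all genes. Gpx3, the glutathione peroxidase of plasma, was at 2752 FPKM in Null and 1071 FPKM in WT (1.36), a level in Null above that of Cfd. Serpina12, which encodes vaspin, was at 0.347 FPKM in Null and 2.51 FPKM in WT (-1.38). The other abundant ones were Cst3, a protease inhibitor, at 1821 FPKM in Null and 1111 FPKM in WT (0.71), and Lpl (0.20, and -0.01 with equal column sums). Next to Retn in WT level stood Angptl4, an inhibitor of lipoprotein lipase, at 419 FPKM in Null and 219 FPKM in WT (0.93).

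Acute-phase genes, which include Lcn2, had a median of 0.17 over 9 measured genes, with 7 higher and 2 lower (5 higher with equal column sums). Hp, which encodes haptoglobin, was at 1183 FPKM in Null and 1108 FPKM in WT (0.09), close in WT to the level of Adipoq (1163 FPKM). Orm1 was at 234 FPKM in Null and 231 FPKM in WT (0.02). Steap4, a metalloreductase, was at 109 FPKM in Null and 68.4 FPKM in WT (0.67). Serpina3n, a protease inhibitor, was past 2-fold at 12.3 FPKM in Null and 29.1 FPKM in WT (-1.18). Saa1, Saa2 and Saa3, the serum amyloid genes, were below the filter in both pools.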
